A study of Mus musculus with 6 samples.

Results

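Genes of mitochondrial protein import, mitochondrial dynamics and mitophagy were examined in bulk RNA-Seq of mouse gastrocnemius-plantaris (GP) muscle. They were chosen by symbol, as all genes whose names begin with Timm or Tomm followed by a digit, together with Mfn1, Mfn2, Opa1, Dnm1l, Fis1, Mff, Pink1, Park2, Fundc1, Lonp1, Clpp, Phb, Phb2 and Immt. The count tables listed 39 such genes among 24421, and 37 of the 39 had enough counts to be tested among 14180 genes. Timm8a2, with at most 1 count in any library, and Tomm20l, with at most 2, were left untested. Of the genes tested, 36 encode proteins and the other, Tomm6os, is an antisense transcript that the symbol rule brought in.

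The study deleted Net39, a protein of the muscle nuclear envelope, in adult mice. By their labels, 3 mice of the Ctrl group had the genotype Net39 fl/fl and no Cre, and 3 mice of the cKO group carried HSACreERT2 besides Net39 fl/fl. The strain background of all 6 mice is given as B6C3F1, though the study's methods mated founders from B6C3F1 zygotes to C57BL/6N mice. All 6 mice carried the floxed allele (loxP sites around the first exon of Net39), received tamoxifen and were sampled at 5 months of age, 3 months after it, and the study used males. The Cre transgene is driven by the human skeletal actin promoter, which is active in skeletal muscle fibres, so the deletion is aimed at fibres and not at the other cells of the tissue.

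Nearly all mitochondrial proteins are made in the cytosol and enter through the TOM complex of the outer membrane, from which the TIM23 complex takes proteins with a presequence into the matrix or inner membrane, and small TIM chaperones and the TIM22 complex deliver carriers to the inner membrane. Mitofusins (Mfn1, Mfn2) and Opa1 fuse the outer and inner membranes, whereas the GTPase Drp1 (Dnm1l) divides mitochondria at receptors such as Mff and Fis1. Pink1 and Parkin (Park2) tag damaged mitochondria for autophagy, Fundc1 is a receptor that recruits the autophagy machinery, and skeletal muscle, with its many mitochondria and fibre types of differing oxidative capacity, depends on these processes.

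The targeted gene went against the labels. Net39, listed as Ppapdc3, had 310, 321 and 217 counts with the Ctrl label and 5365, 4340 and 6080 counts with the cKO label, a log2 fold change of 4.22 ± 0.17 (SE, adjusted p = 0.000161, edgeR's quasi-likelihood test with Benjamini-Hochberg adjustment). The gene expected to be lost was thus low with the Ctrl label, and the counts do not separate the deleted exon. Groups are therefore named by their labels throughout, fold changes put the cKO label over the Ctrl label, and no direction is assigned to the loss of Net39. Whether labels were exchanged was not tested. Total counts were 33860001 to 38201728 with the Ctrl label and 39191239 to 48839910 with the cKO label.

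Of the 37 genes tested, 7 rose in the libraries labelled cKO at an adjusted p under 0.05 (18.9%, against 12.6% of all genes tested). They were Timm23, Opa1, Mff, Timm13, Fundc1, Tomm6 and Timm8b, with log2 fold changes from 0.28 to 0.60. In whole muscle, a smaller number of cells of a type and less RNA per cell cannot be told apart. None was higher with the Ctrl label by the same edgeR test (0 of 37, against 11.8% of all genes), whereas DESeq2 called 1, Timm8a1 (2.70%, against 13.2% of all genes). In either direction, 12 of the 37 had an unadjusted p under 0.05 by edgeR, as had 5501 of the 14180 genes, a larger share. None passed the study's limit of a fold over 2 (0 of 37, against 6.05% of all genes). Over the 37 genes the log2 fold change had its median at 0.03, with 20 above and 17 below 0, beside a median of -0.02 over all genes tested.

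These calls depended on how libraries were scaled and on single libraries. Values are CPM, counts brought to a common library size, scaled by TMM, a method that sets the bulk of genes equal between libraries. Scaling by total counts instead moved the median of all genes to -0.27 and that of the 37 to -0.23, left Timm23 as the only one of the 37 that rose, and called 11 of them lower in the libraries labelled cKO (29.7%, against 28.7% of all genes). The 11 were Tomm5, Tomm7, Tomm20, Tomm22, Tomm40, Timm8a1, Timm17b, Timm22, Timm50, Phb and Park2. Relative to the median of all genes, the log2 fold change of Timm23 was 0.61 under either scaling. With TMM, leaving out mouse 1, 2 or 3 labelled Ctrl left 2, 4 and 5 rises (5.41%, 10.8% and 13.5% of the 37), where 5.33%, 6.06% and 11.8% of all genes rose. Leaving out mouse 1, 2 or 3 labelled cKO left 2, 6 and 1 rises (5.41%, 16.2% and 2.70%), where 6.20%, 12.3% and 5.34% of all genes rose.

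**Figure D1:**
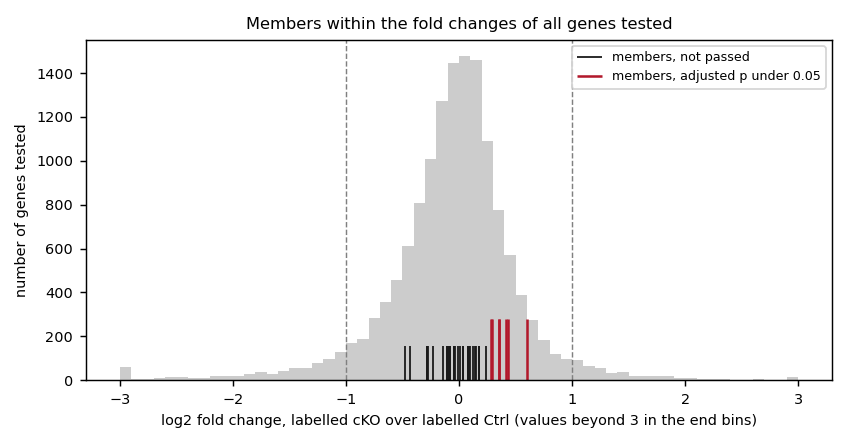
Histogram of the log2 fold changes (x axis, labelled cKO over labelled Ctrl) of the 14180 genes tested (y axis, number of genes per bin), with a tick for each of the 37 mitochondrial genes, taller and red for the 7 that passed an adjusted p of 0.05. Dashed lines mark a fold of 2, and all 37 ticks lie between them, from -0.48 to 0.60.

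The groups did not overlap for 13 genes that were higher in all 3 libraries labelled cKO (35.1%, against 22% of all genes) and for 4 that were higher in all 3 labelled Ctrl (10.8%, against 21.9%). Under scaling by total counts these became 2 and 19 genes, where 8.29% and 42.8% of all genes separated. The 13 were the 7 above with Tomm70a, Timm17a, Timm9, Mfn2, Fis1 and Immt, and the 4 were Tomm20, Tomm22, Timm8a1 and Tomm6os. Spread between mice was small: the median coefficient of variation was 7.38% with the Ctrl label and 5.59% with the cKO label. For 28 of the 37 genes, the whole 95% interval of the fold change under TMM lay within 1.5-fold in either direction. Among the libraries labelled Ctrl, mouse 3 was the lowest for 28 of the 37 genes.

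**Figure D2:**
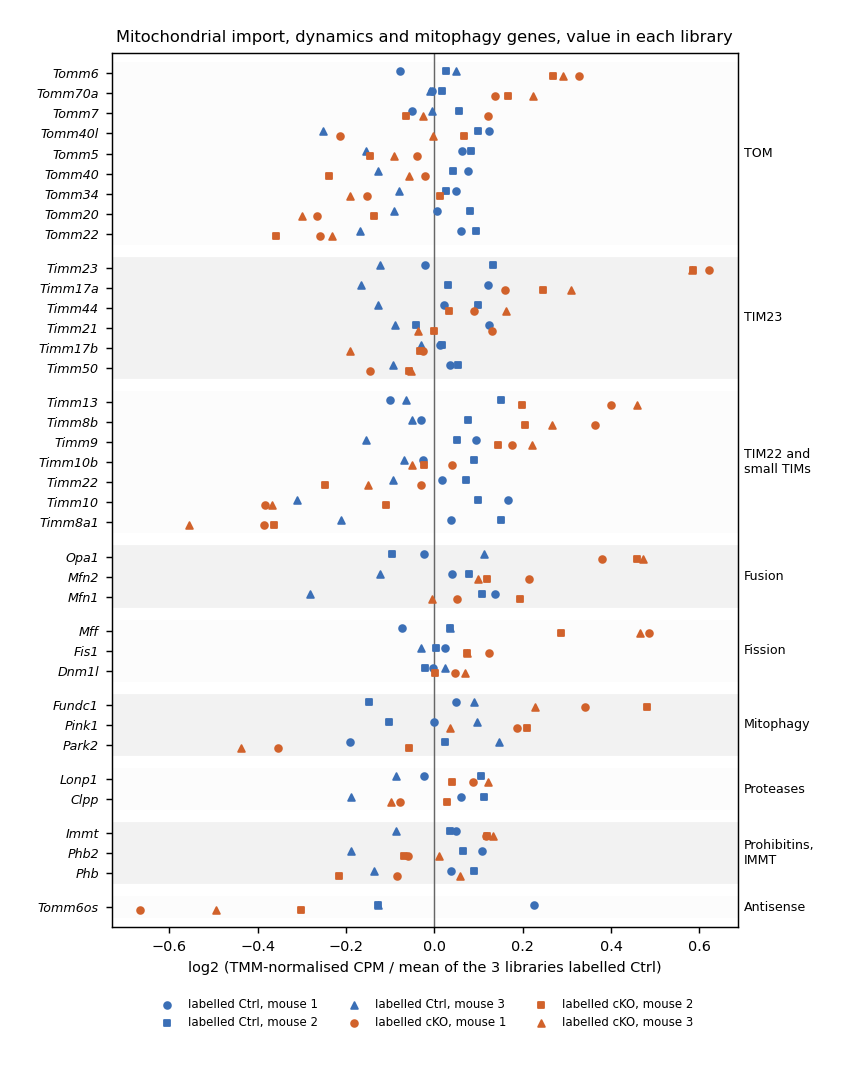
Each point is 1 library of 1 gene, as log2 of its TMM-scaled CPM over the mean of the 3 libraries labelled Ctrl (x axis), with genes on the y axis grouped by role; colour gives the labelled group and shape the mouse number. For Timm23 all 3 libraries labelled cKO (145 to 149 CPM) lie far to the right of those labelled Ctrl (88.9 to 106 CPM), whereas most genes overlap.

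The TOM complex is the entry gate of the outer membrane. Of the 9 protein-coding genes with Tomm names that were tested, only Tomm6, a small subunit that helps hold the complex together, rose. These 9 include Tomm34 (log2 fold change -0.11 ± 0.09) and Tomm40l (-0.05 ± 0.12), which did not pass. Tomm6 (chr17:47686646-47688386, minus strand, GRCm38) had 24.6, 26.5 and 26.9 CPM with the Ctrl label and 32.6, 31.3 and 31.8 CPM with the cKO label. The 2 groups did not overlap, with a log2 fold change of 0.30 ± 0.07 (SE, adjusted p = 0.0252, edgeR). The adjusted p exceeded 0.05 without mouse 1 or 2 labelled Ctrl or mouse 1 or 3 labelled cKO, reaching 0.0922. In the annotation Tomm6 shares 76.0% of its exon bases with Gm21981 on the same strand and also overlaps Tomm6os on the other, so how reads were divided among them is uncertain.

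The receptors of the complex did not pass the test, with Tomm20 and Tomm22 pointing down and Tomm70a up. Tomm20, which binds presequences, had 99.3, 105 and 92.9 CPM with the Ctrl label and 82.3, 90.0 and 80.4 CPM with the cKO label. The annotation holds 4 processed pseudogenes near-identical to Tomm20, which may share its reads. All 3 libraries labelled cKO were below all those labelled Ctrl, but the test was not passed (log2 fold change -0.23 ± 0.08, adjusted p = 0.0790, edgeR). Tomm22, the central receptor that links the subunits, had 43.2, 44.2 and 36.9 CPM against 34.6, 32.3 and 35.2 CPM, also without overlap (log2 fold change -0.28 ± 0.09, adjusted p = 0.0594, edgeR), and both genes passed as lower under scaling by total counts. Tomm70a, the receptor for carriers, pointed the other way, with 74.0, 75.1 and 73.7 CPM against 81.6, 83.4 and 86.7 CPM (log2 fold change 0.18 ± 0.07, adjusted p = 0.0896, edgeR), and its sign turned under total counts (-0.08). Tomm40, the channel itself, had a log2 fold change of -0.10 ± 0.09, Tomm5 one of -0.09 ± 0.09 and Tomm7 one of 0.01 ± 0.08, and all 3 passed as lower under total counts. Tomm6os had 0.564 to 1.05 CPM in all 6 libraries and a log2 fold change of -0.48 ± 0.24 (adjusted p = 0.186, edgeR), with an interval from -1.04 to 0.08.

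Under TMM the TIM23 complex held the largest difference among the 37 genes. With total counts, genes such as Tomm6os (-0.73) and Timm8a1 (-0.69) differed more than Timm23 (0.34). Timm23 (chr14:32180162-32201898, minus strand), a core subunit of the presequence translocase of the inner membrane, had 95.4, 106 and 88.9 CPM with the Ctrl label and 149, 145 and 145 CPM with the cKO label. Every library labelled cKO was well above every one labelled Ctrl, and the mean rose by 51.3%, a log2 fold change of 0.60 ± 0.09 (SE, 95% interval 0.40 to 0.80, adjusted p = 0.00527, edgeR). The rise passed in all 6 fits that left out a library (log2 fold change 0.54 to 0.67) and under total counts (0.34, adjusted p = 0.0300, the highest over all alternatives). The annotation holds 6 other genes with transcripts near-identical to Timm23, such as Gm10273 with 99.9% identity over 1121 bases, none of them listed in the count tables, so reads that match both may have been counted or lost.

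The partners of Timm23 in the complex differed less. Timm17a had 92.3, 86.7 and 75.6 CPM against 94.8, 101 and 105 CPM, and its paralog Timm17b had 25.7, 25.8 and 25 CPM against 25, 24.9 and 22.3 CPM. Timm17a was higher in every library labelled cKO without passing the test (log2 fold change 0.24 ± 0.09, adjusted p = 0.107, edgeR), and the groups overlapped for Timm17b (-0.08 ± 0.08, adjusted p = 0.476, edgeR). Timm44, which tethers the import motor, had a log2 fold change of 0.10 ± 0.08, Timm50, the receptor that hands over presequences, one of -0.08 ± 0.07, and Timm21, which bridges to TOM, one of 0.03 ± 0.09. For these 3 the groups overlapped, and under total counts the signs of Timm17a, Timm44 and Timm21 turned and Timm17b and Timm50 passed as lower.

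Small TIM proteins escort hydrophobic precursors through the intermembrane space, Timm9 with Timm10 and Timm8 with Timm13. Of the 7 genes tested in this group with Timm22, 2 rose. Timm13 (chr10:80899450-80900969, minus strand) had 40.3, 48.0 and 41.3 CPM with the Ctrl label and 57.0, 49.6 and 59.4 CPM with the cKO label. The closest pair of libraries, mouse 2 of either label, differed by little, and the log2 fold change was 0.36 ± 0.10 (adjusted p = 0.0428, edgeR). Timm8b (chr9:50603910-50605320, plus strand) had 48.3, 52.1 and 47.7 CPM against 63.6, 56.9 and 59.4 CPM, again without overlap (0.28 ± 0.08, adjusted p = 0.0356, edgeR). Of the 6 fits without a library, Timm13 kept its call only in those without mouse 2 of either group and Timm8b only in that without mouse 2 labelled cKO, the adjusted p reaching 0.154 and 0.127 in the others.

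Timm8a1, the paralog of Timm8b, lay on the other side. It had 7.61, 8.23 and 6.40 CPM with the Ctrl label and 5.67, 5.76 and 5.04 CPM with the cKO label. The groups did not overlap, but the log2 fold change of -0.43 ± 0.13 missed the threshold (95% interval -0.75 to -0.12, adjusted p = 0.0535, edgeR), whereas DESeq2 called it (adjusted p = 0.0436). The annotation holds a transcribed pseudogene, Gm9797, with 100% identity to Timm8a1 over 612 bases, so reads of the pair cannot be told apart there. Over all alternatives the adjusted p of Timm8a1 ran from 0.0157 under total counts to 0.160 without mouse 2 labelled Ctrl. Timm9 (log2 fold change 0.18 ± 0.09) and Timm10 (-0.28 ± 0.15) pointed in opposite directions, Timm10b, which docks the chaperones at the carrier translocase, was at -0.01 ± 0.08, and Timm22, the carrier channel, was at -0.14 ± 0.08, none of them past the test. Under total counts the sign of Timm9 turned and Timm22 passed as lower (-0.40, adjusted p = 0.0112, edgeR).

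**Figure D3:**
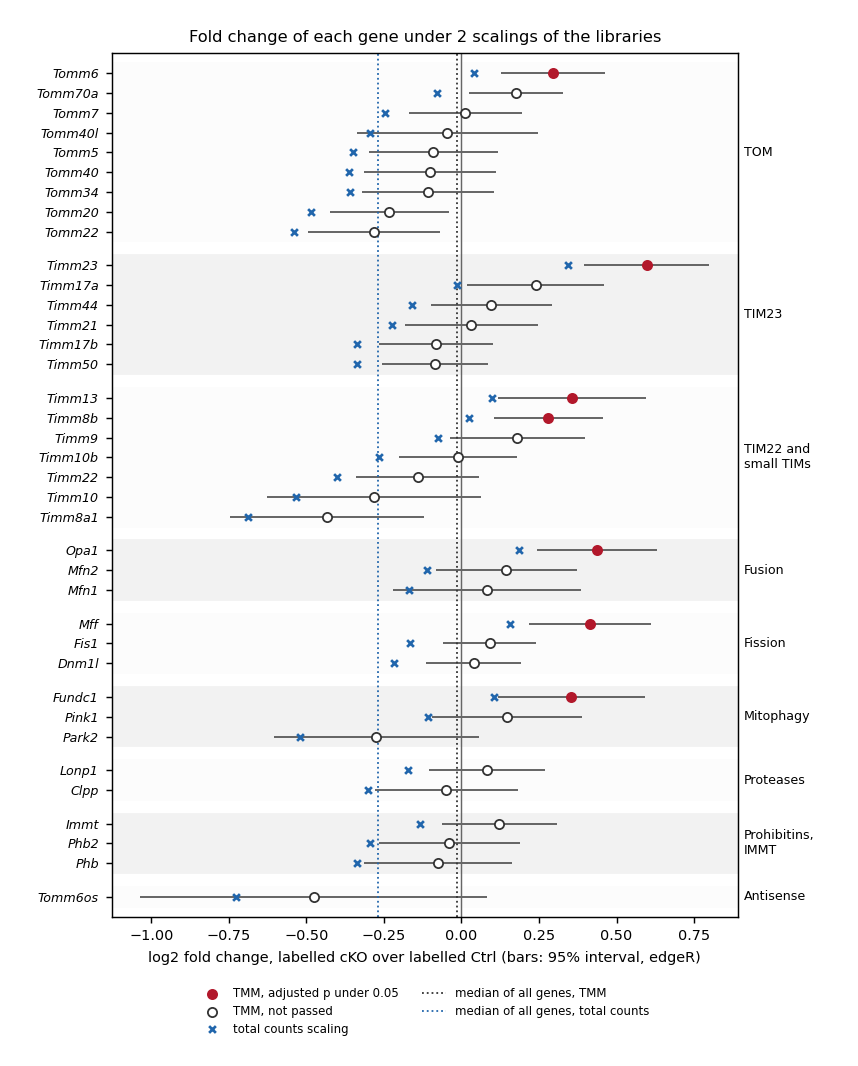
Log2 fold change (x axis, labelled cKO over labelled Ctrl) of each of the 37 genes (y axis, by role), as circles with 95% intervals under TMM, filled where the adjusted p was under 0.05, and as crosses under scaling by total counts; dotted lines mark the median of all genes under each. Crosses lie about a constant step to the left of the circles, and under total counts the fold change of Timm23 (0.34) is the highest.

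Among fusion genes, Opa1 rose and the mitofusins did not pass the test. Opa1 (chr16:29579334-29654884, plus strand), the dynamin-like GTPase that fuses inner membranes and keeps cristae closed, had 114, 109 and 125 CPM with the Ctrl label and 151, 160 and 161 CPM with the cKO label. The groups were well apart, with a log2 fold change of 0.44 ± 0.08 (95% interval 0.24 to 0.63, adjusted p = 0.0117, edgeR), and the call was lost without mouse 3 labelled cKO (adjusted p = 0.0519) and under total counts (0.18, adjusted p = 0.175). Mfn2, which also ties mitochondria to the sarcoplasmic reticulum, had 827, 850 and 739 CPM against 934, 874 and 863 CPM (0.15 ± 0.10, adjusted p = 0.310, edgeR). Mfn1 had 288, 282 and 216 CPM against 272, 300 and 261 CPM (0.08 ± 0.13, adjusted p = 0.676, edgeR). The Mfn2 groups lay side by side without overlap, those of Mfn1 overlapped, and both signs turned under total counts.

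In the fission machinery the receptor Mff rose, while Drp1 was nearly level. Mff (chr1:82724890-82752394, plus strand), which recruits Drp1 to the outer membrane, had 95.6, 103 and 103 CPM with the Ctrl label and 141, 123 and 139 CPM with the cKO label. The groups did not overlap, and the log2 fold change was 0.41 ± 0.08 (95% interval 0.22 to 0.61, adjusted p = 0.0147, edgeR). The adjusted p was above 0.05 without mouse 1 labelled Ctrl (0.0598) and without mouse 1 (0.0539) or 3 (0.0629) labelled cKO. Dnm1l had 92.2, 91.1 and 93.9 CPM against 95.4, 92.5 and 96.9 CPM, a log2 fold change of 0.04 ± 0.06 whose 95% interval ran from -0.11 to 0.19. Fis1, another outer membrane receptor, had 74.8, 73.7 and 72.0 CPM against 80.1, 77.4 and 77.4 CPM (0.09 ± 0.06, adjusted p = 0.332, edgeR). Values of Dnm1l and Fis1 were tight within groups, and both 95% intervals lay within 1.5-fold under TMM, whereas both signs turned under total counts (-0.22 and -0.16).

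Of the mitophagy genes, Fundc1 rose and Pink1 and Park2 did not pass the test. Fundc1 (chrX:17556564-17572325, minus strand) had 24.5, 21.4 and 25.2 CPM with the Ctrl label and 30.0, 33.1 and 27.8 CPM with the cKO label. The groups did not overlap, and the log2 fold change was 0.35 ± 0.10 (adjusted p = 0.0419, edgeR), a call that, of the 6 fits without a library, only the one without mouse 3 labelled Ctrl kept, with an adjusted p of up to 0.118 in the other 5. Pink1, the kinase that accumulates on damaged mitochondria, had 1067, 995 and 1140 CPM against 1215, 1234 and 1094 CPM (0.15 ± 0.10, adjusted p = 0.334, edgeR; -0.11 under total counts). Park2, the ubiquitin ligase it activates, had 9.07, 10.5 and 11.5 CPM against 8.10, 9.95 and 7.63 CPM (-0.27 ± 0.14, adjusted p = 0.196, edgeR). Groups overlapped for both genes, and Park2 passed as lower under total counts (-0.52, adjusted p = 0.0486, edgeR).

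Genes of mitochondrial quality control and inner membrane architecture gave no call under TMM. The matrix proteases Lonp1 and Clpp had log2 fold changes of 0.08 ± 0.08 and -0.05 ± 0.10, and the prohibitins Phb and Phb2, scaffold proteins of the inner membrane, had -0.08 ± 0.10 and -0.04 ± 0.10. Immt (mitofilin), the core of the cristae junction complex, had 311, 308 and 283 CPM against 325, 326 and 329 CPM, higher in every library labelled cKO by a log2 fold change of 0.12 ± 0.08 (adjusted p = 0.292, edgeR). Under total counts Lonp1 (-0.17) and Immt (-0.13) were below 0 without passing, and Phb passed as lower (-0.34, adjusted p = 0.0368, edgeR).

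Ratios of counts between partner genes in the same library do not depend on how libraries are scaled. For Timm8b over Timm8a1 the ratio was 6.35, 6.33 and 7.45 with the Ctrl label and 11.2, 9.87 and 11.8 with the cKO label. It was higher in all 3 libraries labelled cKO, a difference in log2 ratio of 0.71, with p = 0.1 in an exact two-sided permutation test, the smallest p that 3 against 3 allow (0.250 adjusted over 5 pairs). For Timm17a over Timm17b it was 3.59, 3.36 and 3.03 against 3.79, 4.04 and 4.71, also without overlap (log2 difference 0.33, exact permutation p = 0.1, adjusted 0.250). The groups overlapped for Mfn1 over Mfn2 (0.324 ± 0.029 against 0.312 ± 0.027, SD, n = 3, exact permutation p = 0.7), Tomm40 over Tomm40l (1.29 ± 0.09 against 1.24 ± 0.21, p = 0.8) and Phb over Phb2 (0.964 ± 0.042 against 0.936 ± 0.063, p = 0.600). Timm8a1 counts carry the limit of the pseudogene Gm9797, and Timm17a has a processed pseudogene, Gm7180, with 96.3% identity over 516 bases. Tomm40l shares 64.3% of its exon bases with Nr1i3 on the opposite strand, which may add reads to it.

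Other ratios were formed after the values were seen and are given without a test. Mff over Dnm1l was 1.04, 1.13 and 1.10 with the Ctrl label and 1.48, 1.33 and 1.43 with the cKO label. Timm23 over Timm17b was 3.71, 4.12 and 3.56 against 5.95, 5.83 and 6.49, and Tomm6 over Tomm20 was 0.248, 0.253 and 0.289 against 0.396, 0.348 and 0.395. In each of these 3 pairs, every library labelled cKO had a higher ratio than every one labelled Ctrl. The same held for Timm13 over Timm8a1 (mean 5.86 against 10.1), Timm9 over Timm10 (0.955 against 1.31) and Fundc1 over Park2 (2.31 against 3.56), whereas Opa1 over Mfn2 (0.145 against 0.177) overlapped.

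**Figure D4:**
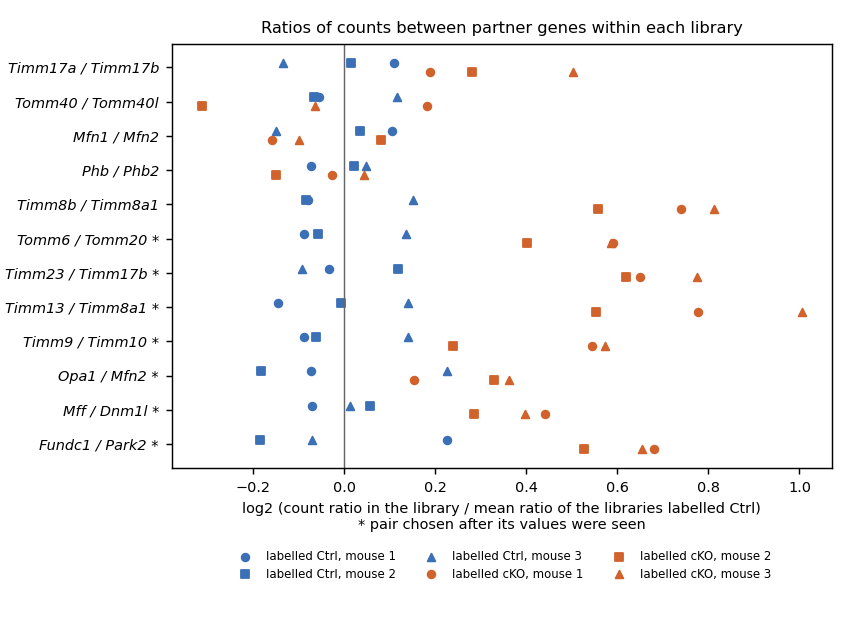
Ratio of raw counts between 2 genes in the same library, as log2 of the ratio over the mean ratio of the libraries labelled Ctrl (x axis), for 12 pairs of genes (y axis); points are libraries, coloured by labelled group, and an asterisk marks the 7 pairs chosen after their values were seen. Timm8b over Timm8a1 lies between 9.87 and 11.8 in the libraries labelled cKO, all above the 6.33 to 7.45 of those labelled Ctrl.

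Levels between genes were compared as CPM per kilobase of exon, taking the union of annotated exons as the length, which understates the level of genes with long rare exons. Pink1 stood highest, at 399 ± 27.3 CPM per kb with the Ctrl label (SD, n = 3) and 442 ± 28.5 with the cKO label. Mfn2 followed at 155 ± 11.3 and 171 ± 7.36, then Timm8b at 95.3 ± 4.56 and 116 ± 6.47 and Timm23 at 54.2 ± 4.89 and 82.0 ± 1.25. The gap from each to the next exceeded the spread between mice. Further down the order blurred: with the Ctrl label, the spread of Mfn1 (42.9 ± 6.58) took in the means of Phb (48.8 ± 3.95) and Fis1 (42.9 ± 0.814). Among the genes tested, Park2 (0.838 CPM per kb with the cKO label) and Tomm6os (0.304 and 0.218) were the lowest, and Timm8a1 (5.22 and 3.87) stood far below its paralog Timm8b.

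Promoters were searched for short motifs of factors known for nuclear genes of mitochondria, as RefSeq sequences on GRCm38.p6 of the 250 bases before the transcription start, both strands, for the 35 of 39 genes that the table held. The motif of GABPA (NRF-2), CCGGAAG, was found in 11 of the 35 (31.4%), against 7.83% of all genes in the table and 14.6% of tested genes. The 11 were Fis1, Immt, Mfn1, Phb2, Timm10, Timm23, Timm8a2, Timm8b, Tomm22, Tomm34 and Tomm70a, of which only Timm23 and Timm8b rose. The NRF1 motif (GCGCA, any base, GCGC) was found in Opa1, Pink1 and Tomm20 (8.57%, against 4.23% of all genes and 8.63% of tested genes), the ERR motif AAGGTCA in Timm8b alone (2.86%, against 4.70% and 3.64%), the YY1 motif AAGATGG in Tomm34 alone (2.86%, against 5.18% and 5.07%) and the MEF2 motif (CTA and TAG with 4 bases between) in none (3.70% and 3.43%). These matches are descriptions of letters and were not tested as binding sites, and the letters of the motifs do not overlap in the promoters shown.

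Of the 7 genes that rose, Timm23, Timm8b and Opa1 were those with a match, and the 200 bases before their starts are shown 5′ to 3′ on the strand of the gene, with matches in capitals. Timm23 (chr14:32201892-32202091, minus strand) carries the GABPA motif in reverse complement, Timm8b (chr9:50603701-50603900, plus strand) carries the ERR motif and, next to its start, the GABPA motif, and Opa1 (chr16:29579134-29579333, plus strand) carries the NRF1 motif.
Timm23: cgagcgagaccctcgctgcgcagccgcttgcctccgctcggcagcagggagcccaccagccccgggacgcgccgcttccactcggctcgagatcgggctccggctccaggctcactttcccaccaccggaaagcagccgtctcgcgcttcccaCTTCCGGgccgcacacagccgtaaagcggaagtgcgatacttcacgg
Timm8b: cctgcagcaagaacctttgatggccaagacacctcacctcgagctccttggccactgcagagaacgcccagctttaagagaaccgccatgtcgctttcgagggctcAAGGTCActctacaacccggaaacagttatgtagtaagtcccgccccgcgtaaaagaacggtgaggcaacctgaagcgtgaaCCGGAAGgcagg
Opa1: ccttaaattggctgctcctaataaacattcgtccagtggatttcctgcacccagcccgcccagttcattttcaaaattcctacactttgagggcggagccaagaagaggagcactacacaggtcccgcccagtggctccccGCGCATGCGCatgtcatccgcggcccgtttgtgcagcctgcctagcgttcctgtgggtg

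Other genes of the same processes were taken from a list of 77, of which 75 were tested. Of these, 14 rose and 4 fell in the libraries labelled cKO (against 12.6% and 11.8% of all genes), and 1, Gdap1, passed the fold of 2. Under total counts 3 rose and 23 fell, where 4.75% and 28.7% of all genes did. Gdap1, an outer membrane protein that promotes fission, had 6.92, 8.57 and 12.7 CPM with the Ctrl label and 24.1, 28.1 and 22.4 CPM with the cKO label. Its lowest library labelled cKO was well above its highest labelled Ctrl, with a log2 fold change of 1.41 ± 0.22 (adjusted p = 0.00648, edgeR), and it passed under total counts as well (1.16, adjusted p = 0.0106).

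Of 12 genes tested for inner membrane proteases and the control of fusion, 3 rose (Parl, Spg7 and March5). Parl, the rhomboid protease that cleaves Pink1, had 28.2, 31.5 and 28.8 CPM against 44.1, 41.8 and 41.4 CPM (log2 fold change 0.52 ± 0.07, adjusted p = 0.00504, edgeR), and Spg7, a subunit of the matrix-facing AAA protease, had 101, 113 and 107 CPM against 150, 148 and 144 CPM (0.46 ± 0.07, adjusted p = 0.00750, edgeR). Gfer, the sulfhydryl oxidase that keeps intermembrane space import running, had 22.4, 24.5 and 27.0 CPM against 41.2, 35.6 and 40.2 CPM (0.66 ± 0.10, adjusted p = 0.00563, edgeR). Each of the 3 separated the groups completely, and Parl and Gfer passed under total counts.

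Import motor genes and cristae genes supplied other rises. Dnajc19, a J-protein of the import motor, had 32.7, 34.4 and 36.7 CPM against 47.8, 45.3 and 46.3 CPM (log2 fold change 0.42 ± 0.07, adjusted p = 0.00838, edgeR), and its relative Dnajc15 had 35.8, 36.2 and 33.9 CPM against 44.7, 44.3 and 44.7 CPM (0.34 ± 0.06, adjusted p = 0.0122, edgeR). Apoo, a subunit of the cristae junction complex around Immt, had 17.1, 18 and 17.9 CPM against 24.2, 24.6 and 24.8 CPM (0.47 ± 0.07, adjusted p = 0.00619, edgeR). The matrix chaperone Trap1 had 133, 144 and 145 CPM against 189, 183 and 176 CPM (0.38 ± 0.08, adjusted p = 0.0147, edgeR). In all 4 the libraries labelled cKO lay above those labelled Ctrl, but none of the 4 passed under total counts.

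The other rises were Chchd3 (log2 fold change 0.49), Fundc2 (0.46), Park7 (0.46), Usp15 (0.41), March5 (0.41) and Rhot1 (0.24), and the genes that fell were Inf2 (-0.65), Bnip3 (-0.59), Apool (-0.31) and Pmpcb (-0.27). None of these 6 rises passed under total counts, where Rhot1 turned to -0.013, and of the 6 fits without a library Chchd3 passed in 4, Fundc2 in 3, Usp15 and Park7 in 2, March5 in 1 and Rhot1 in 0. All 4 falls passed under total counts, and Bnip3 passed in 5 of the 6 fits, Inf2 in 3, Pmpcb in 2 and Apool in 1. Bnip3, a mitophagy receptor like Fundc1, had 419, 330 and 323 CPM with the Ctrl label and 249, 246 and 218 CPM with the cKO label (adjusted p = 0.0169, edgeR). Genes listed for mitophagy thus included rises (Fundc1 and its relative Fundc2) and a fall (Bnip3). Bnip3l (log2 fold change 0.38, adjusted p = 0.0783, edgeR), Fkbp8 (0.18) and Bcl2l13 (-0.01) did not pass. Cristae genes included a rise in Apoo and Chchd3 and a fall in Apool, a relative of Apoo. Rises and falls among the 75 numbered 8 and 1 without mouse 1 labelled Ctrl (5.33% and 5.63% of all genes) and 8 and 1 without mouse 2 labelled Ctrl (6.06% and 6.57% of all genes). They numbered 7 and 2 without mouse 1 labelled cKO (6.20% and 6.18% of all genes) and 7 and 0 without mouse 3 labelled cKO (5.34% and 5.46% of all genes), so calls dropped across all genes in these fits.

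Markers of other features of the tissue differed between the same libraries. Summed over 10 slow-fibre genes, levels were 9353 to 15855 CPM with the Ctrl label and 588 to 4145 CPM with the cKO label. By edgeR under TMM 5 of 10 fell, and all 10 had negative fold changes. DESeq2 also called others of the 10, such as Myh7 (adjusted p = 0.0183, against 0.0742 by edgeR). Summed over 10 genes of fast type IIb fibres they were 63028 to 104045 CPM and 161120 to 205667 CPM (10 of 10 rose, of which Mylpf did not pass under total counts). General skeletal muscle markers were high in all 6 libraries, with sums of 65790 to 68634 CPM under the Ctrl label and 73236 to 98555 CPM under the cKO label, and 3 of 6 rose (Ckm, Neb and Ryr1). Under total counts Ckm kept its call (adjusted p = 0.0378, edgeR), and Neb (0.0748) and Ryr1 (0.0584) did not.

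Immune markers summed to 125 to 145 CPM with the Ctrl label and 55.5 to 82.9 CPM with the cKO label (4 of 6 tested fell, with Cd3e and Cd79a near 0 and untested), and fibro-adipogenic markers to 2354 to 2418 CPM and 1690 to 2235 CPM (2 of 6 fell). Of 5 Schwann cell markers 1 fell (summed 101 to 155 CPM and 53.5 to 100.2 CPM), and 0 of 5 endothelial, 0 of 5 adipocyte and 0 of 3 satellite cell markers passed the edgeR test. Of 6 general genes of mitochondrial content, Vdac1 (log2 fold change 0.53, adjusted p = 0.0103, edgeR) and Tfam (0.26, adjusted p = 0.0398, edgeR) rose. Slc25a4 (0.41), Cs (0.23), Cycs (0.02) and Ppargc1a (-0.21) did not pass. Under TMM the 6 summed to 5241 to 6220 CPM against 7188 to 7805 CPM, of which Slc25a4 (means 3268 and 4331 CPM) was the largest part. Vdac1 and Tfam did not pass under total counts (0.28 and 0.0037). The call of Vdac1 was lost without mouse 3 labelled cKO (adjusted p = 0.0533, edgeR), and Tfam passed in none of the 6 fits without a library (adjusted p 0.0585 to 0.164, edgeR). With TMM, the 39 genes themselves summed to 4075 to 4305 CPM against 4520 to 4688 CPM. The 25 with Timm or Tomm names summed to 874 to 986 CPM against 995 to 1015 CPM. The largest parts of the sum of the 39 were Pink1 (means 1067 and 1181 CPM) and Mfn2 (805 and 891 CPM), neither of which passed. These sums are given under TMM only. Under total counts the median log2 fold change of the genes tested among the 39 was -0.23, against 0.03 under TMM, so the higher sums may depend on the scaling. The part of fibre type, of other cells and of mitochondrial content in the differences of the 7 genes was not tested.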

How the data were processed

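RNA of GP muscle was isolated with a column kit and made into mRNA libraries (KAPA mRNA HyperPrep). Per the labels and the study's methods, the authors checked paired-end reads with FastQC 0.11.8, used Trimmomatic 0.39 for trimming, HISAT2 2.1.0 for alignment to mm10 and featureCounts 1.6.2 for counts per gene. The authors deposited raw counts, 1 table per library, for 24421 genes; the annotation and the use of strand are not given in the sources used here, so reads of overlapping genes cannot be assigned with certainty.

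The test across all genes was edgeR 4.0.16 under R 4.3.3 (TMM, filterByExpr, quasi-likelihood test, Benjamini-Hochberg adjustment over 14180 genes, threshold 0.05), 3 libraries labelled Ctrl against 3 labelled cKO, after tests of the steps on simulated data. In the simulated data edgeR recovered 13 of 50 genes changed 1.5-fold and 34 of 49 changed 2-fold, and DESeq2 recovered 23 and 43. A gene that did not pass may therefore still differ by such a fold. Standard errors were derived from the F statistic. The study used DESeq with a fold over 2. Alternatives were a fit with DESeq2 1.42.0, its size factors in edgeR, scaling by total counts, a minimum of 10 counts throughout, omission of the filter, a robust fit, the mouse number as a block and each library left out. The replicates are separate mice. For ratios an exact permutation test was used (two-sided, smallest p 0.1). CPM used TMM factors. No 2 libraries agreed within sampling noise (chi-square per degree of freedom at least 31.4).

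Genes, exons and copies came from GENCODE M21 on GRCm38 (mm10), in which all 39 symbols matched. Copies were transcripts of other genes with at least 95% identity over at least 200 bases. The genes, the other lists and the motifs were chosen with earlier results of these data known. Related genes were named where the adjusted p was under 0.05, the 8 with the smallest p with their values. The counts of groups that do not overlap under total counts, and 7 of the 12 ratios, were chosen after seeing the data.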

Additional observations from a re-analysis of the deposited data

How the results depend on the processing

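Scaling by total counts changed most calls. It gave 1 rise and 11 falls among the 37 genes, a median log2 fold change of -0.23, and 3 rises and 23 falls among the 75 related genes. Over all genes, 4.75% rose and 28.7% fell. Signs turned for Dnm1l (-0.22), Fis1 (-0.16), Immt (-0.13), Lonp1 (-0.17), Mfn1 (-0.17), Mfn2 (-0.11), Pink1 (-0.11), Timm17a (-0.015), Timm21 (-0.23), Timm44 (-0.16), Timm9 (-0.076), Tomm7 (-0.25) and Tomm70a (-0.078). The median of all genes moved to -0.27 with this scaling. Falls among the 37 genes numbered 1 (Timm8a1) with at least 10 counts in every library and 1 (Timm8a1) with DESeq2 (2.70% in either, against 12.1% and 13.2% of all genes).

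With the mouse number as a block, rises numbered 2 among the 37 genes (Timm23 and Opa1, 5.41%, against 6.54% of all genes). Rises and falls numbered 7 and 1 among the 75 related genes, beside 6.54% and 6.85% of all genes. Deviations of same-numbered mice correlated at 0.08, -0.21 and -0.00, and those of differently numbered mice at -0.22 to 0.19. Not every library correlated best with its own number. With so few mice a group, these correlations cannot decide whether the numbers pair the mice.

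Leaving out each library in turn gave 1 to 6 rises and 0 to 3 falls among the 37 genes, and 7 to 14 rises and 0 to 4 falls among the related genes. Over all genes, 5.33% to 12.3% rose and 5.46% to 12.5% fell in these fits. Without mouse 3 labelled Ctrl the 3 falls (8.11%, against 10.6% of all genes) were Timm8a1, Timm10 and Tomm22. Log2 fold changes crossed 0 for Clpp (-0.13 to 0.013), Tomm40l (-0.15 to 0.022), Phb2 (-0.12 to 0.019), Timm10b (-0.050 to 0.037), Tomm7 (-0.057 to 0.043), Timm21 (-0.031 to 0.10) and Mfn1 (-0.039 to 0.16). No setting put any of the 37 genes past the fold of 2. DESeq2's size factors, no filter and the robust fit gave 7 rises and 0 falls, against 9.06% to 12.8% and 8.04% to 11.6% of all genes. Ppapdc3 stayed between 3.95 and 4.31 in all settings. With 3 mice a group the standard error of a log2 fold change had a median of 0.09, and Timm8a2 and Tomm20l were too shallow to test. Causes of the changes with the libraries left out and the block were not tested.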
